A study of Mus musculus with 6 samples.

Results

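The Krüppel-like factors described here are 7 genes, Klf2, Klf3, Klf4, Klf6, Klf7, Klf10 and Klf13, chosen by symbol out of the 48397 genes in the table of read counts. They were compared between the genotypes, BALB/c and SKG, in stage 0 iNKT cells, the earliest stage of the lineage after selection. The question was whether its paralogs shared the difference seen for Klf2. BALB/c mice were wild type, and SKG mice carried a hypomorphic Zap70 mutation on the same BALB/c background, and the labels give no treatment for either group. Each genotype had 3 libraries of polyA RNA. Each library came from about 1000 sorted cells, for which the thymi of 3 mice, 8 to 10 weeks old, had been pooled, and single mice therefore cannot be told apart. Both groups shared the same gate, which took thymocytes that bound the PBS57-loaded CD1d tetramer and were CD44-, CD24+, CD69+, CD4 low or negative and CD8-. The sample titles spell the mutant strain SGK, and the genotype label spells it SKG.

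Krüppel-like factors are transcription factors that bind GC-rich and CACCC sequences through C2H2 zinc fingers at the C-terminal end of the protein, and they differ mainly in the regions outside the fingers, which recruit coactivators or corepressors. In thymocytes Klf2 is known as a factor of quiescence and of exit from the thymus: it is switched on in cells that have completed selection, and it activates genes for trafficking receptors such as S1pr1. Signals through MEK5 and ERK5 to MEF2, and Foxo1 in resting T cells, are known to promote its transcription. Klf2 and Klf4 are both described as inhibitors of T cell proliferation. Klf3 is a repressor that works with CtBP corepressors, Klf10 is a target of TGF-β signaling, and Klf13 is a regulator of Ccl5 in activated T cells. Klf6 and Klf7 form a broadly expressed pair of close relatives.

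The coding stretches of the zinc fingers show how alike the members are, and are given for Klf2 with the member nearest to it (Klf4) and the one farthest from it (Klf10). Each stretch runs over 243 bases of a GENCODE M21 transcript of the GRCm38 genome, from the first zinc-binding cysteine codon to the last zinc-binding histidine codon of the 3 fingers, and capitals mark the codons of the cysteines and histidines that hold the zinc. It was found in 26 of 26 Klf and Sp genes searched. The Klf2 stretch lies in exons 2 and 3 of the gene on chromosome 8 (72320170 to 72320913, plus strand), that of Klf4 in exons 4 and 5 of its transcript on chromosome 4 (55528131 to 55529790, minus strand) and that of Klf10 in exons 3 and 4 on chromosome 15 (38295995 to 38296687, minus strand).
Klf2: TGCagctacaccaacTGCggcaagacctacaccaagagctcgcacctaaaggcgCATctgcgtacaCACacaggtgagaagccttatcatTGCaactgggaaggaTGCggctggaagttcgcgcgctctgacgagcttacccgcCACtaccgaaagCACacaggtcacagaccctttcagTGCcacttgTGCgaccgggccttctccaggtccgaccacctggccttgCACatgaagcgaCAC
Klf4: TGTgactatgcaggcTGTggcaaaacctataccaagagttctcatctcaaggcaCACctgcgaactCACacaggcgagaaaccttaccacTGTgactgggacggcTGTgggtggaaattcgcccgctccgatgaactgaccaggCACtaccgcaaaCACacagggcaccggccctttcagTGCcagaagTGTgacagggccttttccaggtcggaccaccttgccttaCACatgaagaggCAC
Klf10: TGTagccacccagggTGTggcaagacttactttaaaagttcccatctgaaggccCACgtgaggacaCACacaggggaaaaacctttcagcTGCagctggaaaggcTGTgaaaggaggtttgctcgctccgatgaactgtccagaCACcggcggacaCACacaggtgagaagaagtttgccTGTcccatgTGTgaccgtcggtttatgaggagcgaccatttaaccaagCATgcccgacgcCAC
Over these 243 bases, Klf4 was identical to Klf2 at 190 (78.2%). The identity with Klf2 was 69.1% for Klf6, 68.7% for Klf3, 68.7% for Klf7, 64.2% for Klf13 and 62.6% for Klf10. Among the 21 pairs of members, identity ranged from 59.3% (Klf6 and Klf10) to 81.1% (Klf6 and Klf7), and the longest run of identical bases, between the same close pair Klf6 and Klf7, was 26 bases. This is shorter than the 50 bases of a read, and no stretch of 50 bases was shared between transcripts of different members, so a read of that length without errors fits at most 1 member. Of stretches of that length in all their transcripts, Klf2 shared 0 of 1798 with any other gene, Klf6 0 of 4383 and Klf10 0 of 4126. Klf4 shared 8 of 3047, Klf13 11 of 7476 and Klf3 398 of 11430. Klf7 shared 3108 of 8128, all with Gm26649, an annotated gene that overlaps it and that had 0 reads in every library. Reads were counted without regard to strand, so reads in that overlap may be missing from the Klf7 counts of both genotypes.

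The sequence just upstream of Klf2 is shown because regulators of Klf2 transcription are among the genes examined further on. It is taken from RefSeq promoter sequences of GRCm38.p6 and covers chr8:72318812-72319032 on the plus strand, ending at the base before the annotated start of the gene. Capitals mark 1 match to an EGR motif (GCGNGGGCG, first in the sequence) and 1 match to a MEF2 motif (CTA, any 4 bases, then TAG, second).
Klf2 upstream: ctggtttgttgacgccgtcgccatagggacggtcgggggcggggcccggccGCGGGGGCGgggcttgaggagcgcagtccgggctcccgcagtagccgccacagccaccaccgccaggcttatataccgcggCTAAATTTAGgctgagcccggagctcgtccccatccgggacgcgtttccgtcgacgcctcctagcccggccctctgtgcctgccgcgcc
Both strands of 300 bases around the start, from 250 before to 50 after it, were searched for 5 motifs in the 6 members matched in the RefSeq table (Klf10 had no entry) and in 32851 promoters in all. The MEF2 motif was found in Klf2 and in 0 of the other 5 members, against 3.69% of all promoters. The EGR motif was found in Klf2, Klf3 and Klf4, against 5.55% of all promoters, and overlaps the GC box GGGCGG at some of its matches. The GC box itself was present in all 6 members (35.7% of promoters), CACCC in Klf2, Klf3, Klf7 and Klf13 (57.5%), and the forkhead motif GTAAACA in 0 of the 6 (3.65%). A match describes the letters of the window and does not show that a factor binds there.

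The reads counted on genes ranged from 37176544 to 43115544 per library, while between 10835 and 14791 genes had 10 reads or more. Expression is given as CPM, the count of a gene scaled to the TMM-normalized library total, which allows a gene to be compared between libraries. Fold changes are SKG over BALB/c from edgeR's quasi-likelihood test, with Benjamini-Hochberg adjustment over the 12312 genes that passed the filter on low counts, and the number of cells expressing a gene and its RNA per cell cannot be told apart in bulk samples. Zap70 mRNA was present in every library, from 322 to 498 CPM, and since counts do not read the SKG mutation this does not check the labels. The 7 markers listed for stage 0 iNKT cells were present in every library and had summed levels of 4243 to 5148 CPM in BALB/c and 3628 to 4083 CPM in SKG, with every BALB/c library above every SKG library. That difference gave p = 0.1 in a two-sided exact permutation test, the smallest that 3 libraries against 3 allow. Of the 7 markers, 5 had log2 fold changes below 0. Cd69 (-0.87) and Egr2 (-0.80) were lower in every SKG library, where 7.12% of all genes showed that, and 7 genes are too few to set against that share. Cd24a was at 25.1 ± 24.0 CPM in BALB/c and 70.4 ± 33.4 CPM in SKG (SD, n = 3), with overlapping groups.

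Klf2 stood at 4.44, 0.377 and 15.8 CPM in the BALB/c libraries 1 to 3 and at 66.0, 84.0 and 107 CPM in the SKG libraries 1 to 3. All SKG libraries were above all BALB/c libraries, and the BALB/c libraries were far apart from each other, with a highest to lowest ratio of 41.8 against 1.62 in SKG. The fitted log2 fold change was 3.64 ± 1.17 (SE, unadjusted p = 0.0185, adjusted p = 0.830, edgeR). This difference was known when the genes were chosen, and the 6 paralogs were set against it.

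**Figure D1:**
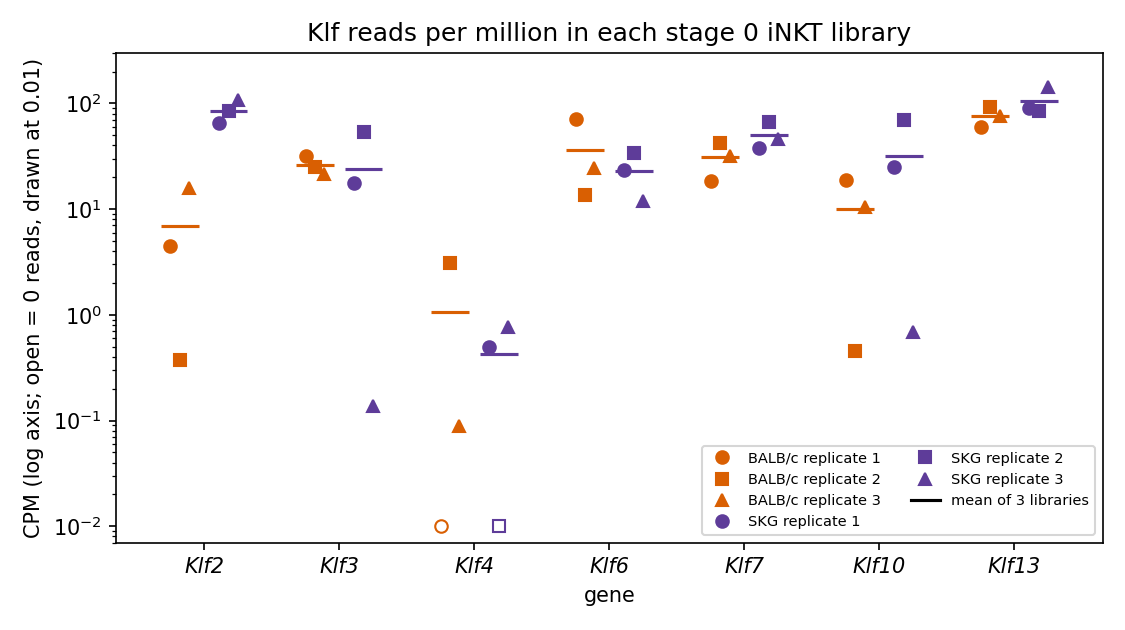
Expression of the 7 Krüppel-like factors in each library as CPM on a log axis, with BALB/c libraries in orange, SKG libraries in purple and the group mean as a bar. Only for Klf2 do the 3 SKG libraries sit above the 3 BALB/c libraries, and Klf3, Klf4 and Klf10 each have libraries far below the others of the same genotype.

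Klf13 and Klf7 were the steadiest paralogs. Klf13 stood at 59.5, 93.2 and 75.8 CPM in BALB/c and at 90.6, 85.4 and 143 CPM in SKG. The groups overlapped, with means of 76.2 ± 16.8 and 106 ± 32.0 CPM (SD, n = 3 libraries) and a log2 fold change of 0.48 ± 0.30 (SE, adjusted p = 0.977, edgeR). Klf7 stood at 18.5, 42.5 and 32.1 CPM in BALB/c and at 38.1, 66.5 and 46.3 CPM in SKG. These groups overlapped as well, since BALB/c library 2 was above SKG library 1, and the log2 fold change was 0.70 ± 0.44 (SE, adjusted p = 0.982, edgeR). For both genes the estimate lay above 0 with any library left out, between 0.22 and 0.64 for Klf13 and between 0.44 and 0.98 for Klf7, and it stayed far below that of Klf2.

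Klf6, the close relative of Klf7, was at 71.1, 13.6 and 24.5 CPM in BALB/c and at 23.6, 33.6 and 11.8 CPM in SKG. The groups overlapped in part, with BALB/c library 1 by far the highest of the 6 libraries and SKG library 3 the lowest. The log2 fold change was -0.66 ± 0.74 (SE, adjusted p = 0.991, edgeR). Without BALB/c library 1 it turned to 0.28.

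Klf3 was even among the BALB/c libraries and uneven among the SKG libraries, the reverse of Klf2. The BALB/c libraries held 1303, 932 and 980 reads (31.6, 25.1 and 21.7 CPM), and the SKG libraries held 718, 2101 and 5 reads (17.8, 54.1 and 0.138 CPM). The SKG libraries lay on both sides of the BALB/c libraries. The highest to lowest ratio of CPM was 1.46 in BALB/c and 391 in SKG, and the log2 fold change was -0.12 ± 1.44 (SE, adjusted p = 0.999, edgeR). It ranged from -1.52 without SKG library 2 to 0.48 without SKG library 3.

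Klf10 swung within both genotypes. It was covered by 776, 17 and 477 reads in BALB/c against 1006, 2682 and 25 in SKG. As CPM these were 18.8, 0.458 and 10.6 in BALB/c and 25.0, 69.0 and 0.691 in SKG. BALB/c library 2 and SKG library 3 were both more than 10 times below the others of their genotype, and the groups overlapped. The mean level was higher in SKG by a log2 fold change of 1.67, with a standard error of 1.65 (adjusted p = 0.991, edgeR). Without SKG library 2 the log2 fold change was 0.39, and without BALB/c library 1 it was 2.53.

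Klf4, the member whose zinc-finger stretch is nearest to that of Klf2, was barely detected. The BALB/c libraries held 0, 115 and 4 reads, against 20, 0 and 28 in SKG. A count of 0 allows up to 0.0727 CPM in BALB/c library 1 and 0.0772 CPM in SKG library 2, taking 3 reads as the limit and covering counting error only. Most of its BALB/c reads came from library 2, at 3.10 CPM, and the log2 fold change of -1.32 ± 2.30 (SE, adjusted p = 0.991, edgeR) became 3.14 without that library. With reads this few and this uneven between libraries, a difference in Klf4 was not detectable in either direction.

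All 7 members passed the filter on low counts, Klf4 through BALB/c library 2 and SKG libraries 1 and 3. With calls defined by an FDR below 0.1 together with a 1.5-fold change or more, edgeR called 0 of the 7, against 0% of all 12312 genes, and limma-voom also called 0. At an unadjusted p under 0.05 edgeR had 1 of the 7, Klf2, where 5.45% of all genes tested lay under that value. BALB/c and SKG libraries were apart for 1 of the 7, again Klf2, and for 0 of the 6 paralogs, where 13.9% of all genes did not overlap. A fitted fold change of 1.5 or more toward SKG was found for 3 of the 7 (Klf2, Klf7 and Klf10), against 19.7% of all genes. The Klf2 difference was known beforehand, so only Klf7 and Klf10 of the 6 paralogs bear on that share. With a library left out, their log2 fold changes fell as low as 0.44 and 0.39, less than a 1.5-fold change. DESeq2 called Klf2 with shrunken fold changes (log2 fold change 2.30, adjusted p = 0.0712) and without shrinkage (3.68, adjusted p = 0.0439). It called 1.67% and 2.58% of the genes it tested in these 2 ways, and 0 of the 6 paralogs in either. Among the paralogs 3 estimates were above 0 and 3 below, with a median log2 fold change of 0.18 and a range from -1.32 to 1.67, where the median over all genes tested was -0.02 and 49% were above 0.

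**Figure D2:**
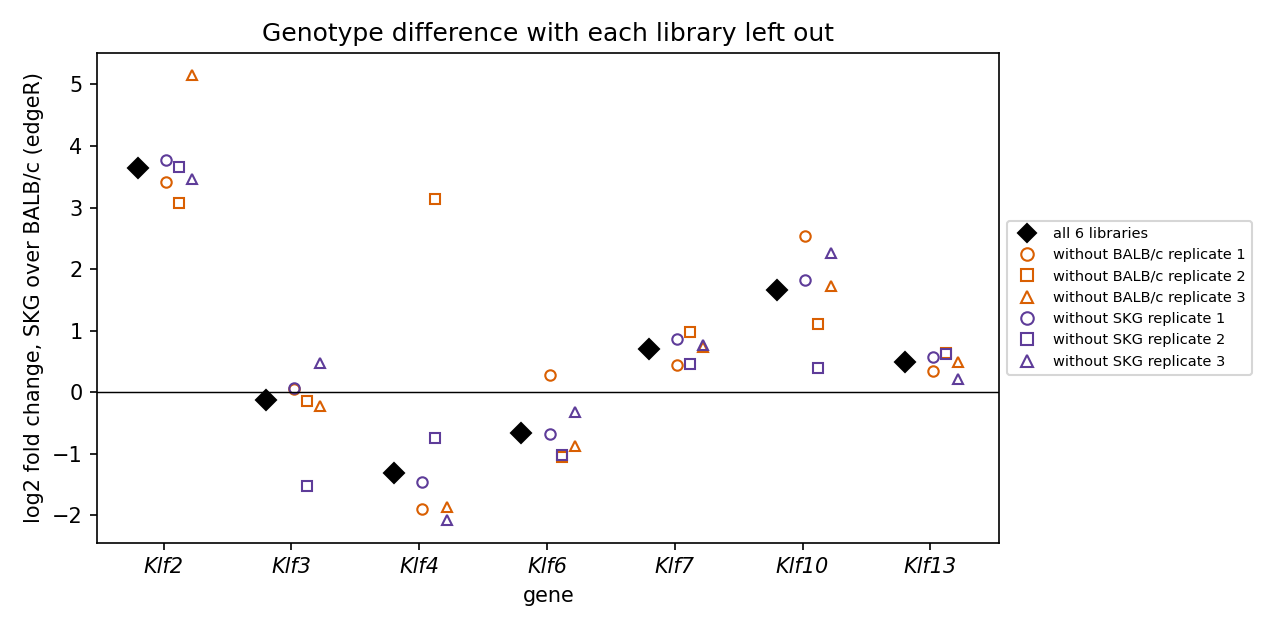
Log2 fold change (SKG over BALB/c, edgeR) of each member with all 6 libraries (black diamond) and after each library was left out (open symbols, orange for BALB/c and purple for SKG). Klf2 stays between 3.07 and 5.15, Klf7 and Klf13 stay between 0.22 and 0.98, and Klf3, Klf4 and Klf6 cross 0.

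The spread between libraries of one genotype differed widely among the members. The pooled SD of log2 CPM within genotypes was 0.368 for Klf13 and 0.519 for Klf7, below the median of 0.636 over all genes tested. Klf6 was at 1.01, Klf2 at 1.89, Klf4 at 2.69, Klf3 at 3.07 and Klf10 at 3.13, the last above 91.1% of all genes. SKG library 3, with 10835 genes of at least 10 reads, had under 30 reads on 3 of the 7 members (Klf3, Klf4 and Klf10) while it had the highest Klf2 of all libraries. BALB/c library 2, with 11830 such genes, had under 30 reads on Klf2 and Klf10, and BALB/c library 1, with 11415, had so few on Klf4 alone. Of all genes tested, 20.8% had under 30 reads in SKG library 3, 15.4% in BALB/c library 2 and 17.1% in BALB/c library 1. The part of these uneven libraries in the differences was not tested.

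Whether Klf2 differed more than a given paralog was tested within libraries, as the log2 CPM of Klf2 minus that of the paralog. Against Klf13 this was -3.73, -7.76 and -2.26 in BALB/c and -0.46, -0.02 and -0.42 in SKG. CPM is not scaled to gene length, so only the change of this measure between libraries can be read, and it was higher in each SKG library than in any BALB/c library. The genotype difference in this measure was 4.28 (two-sided exact permutation test, p = 0.1, the smallest possible). Against Klf7 the values were -2.05, -6.62 and -1.02 in BALB/c and 0.79, 0.34 and 1.20 in SKG, a difference of 4.01 (exact permutation p = 0.1), again with separate groups. Klf6 gave a difference of 5.19, Klf3 of 6.92 and Klf4 of 4.68, each with separate groups (exact permutation p = 0.1). The highest Klf3 value, 9.11 in SKG library 3, rests on 5 reads of Klf3. For Klf4 the groups were barely apart, at 6.895 in BALB/c library 3 and 6.918 in SKG library 1, on 4 and 20 reads of Klf4. In BALB/c library 1 and SKG library 2 Klf4 had 0 reads, so the prior count set its level there. Against Klf10 the groups overlapped, at -2.07, -0.25 and 0.58 in BALB/c and from 0.28 to 7.16 in SKG, with a difference of 3.53 (exact permutation p = 0.2). Since 6 paralogs were compared and no p could fall below 0.1, none could pass a threshold of 0.05, and all 6 differences contain the known one of Klf2. In BALB/c library 2 both Klf2 and Klf10 were near the limit of detection, with 14 and 17 reads.

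**Figure D3:**
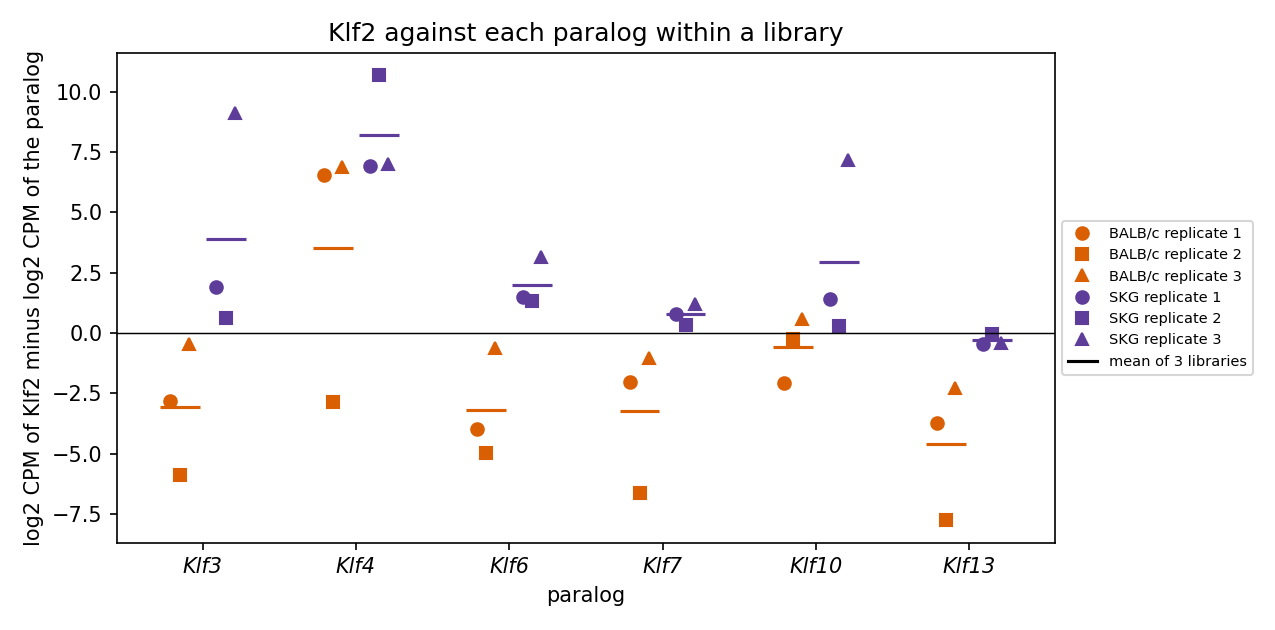
Log2 CPM of Klf2 minus log2 CPM of each paralog within the same library (prior count 2), with BALB/c in orange and SKG in purple and one symbol for each replicate number. The SKG libraries lie above the BALB/c libraries for 5 of the 6 paralogs, and for Klf10 SKG library 2 (0.28) lies below BALB/c library 3 (0.58).

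Levels of different members were compared per length, as RPKM over the exons of each gene. The order depends on the length used. For Klf3 the union of all exons is 11243 bases, and the transcript that holds its finger stretch is 5221 bases. For Klf2 both lengths are 1847 bases. Reads of Klf7 may also be missing, as said above. In BALB/c the order was Klf13 (10.1 ± 2.23 RPKM, SD, n = 3), Klf6 (8.29 ± 6.96), Klf7 (3.82 ± 1.48), Klf2 (3.71 ± 4.32), Klf10 (2.38 ± 2.20), Klf3 (2.32 ± 0.447) and Klf4 (0.349 ± 0.579). Libraries of neighbours in this order overlapped except for Klf3 and Klf4. In SKG the order was Klf2 (46.3 ± 11.0 RPKM, SD, n = 3), Klf13 (14.1 ± 4.25), Klf10 (7.55 ± 8.29), Klf7 (6.19 ± 1.80), Klf6 (5.24 ± 2.48), Klf3 (2.13 ± 2.44) and Klf4 (0.139 ± 0.129). With these exon lengths Klf2 thus moved from the fourth to the first place. Its lowest SKG library, at 35.7 RPKM, was above the highest of Klf13, at 19.0 RPKM. All other neighbours in the SKG order overlapped. Klf13 was the first of the members in BALB/c and the first of the 6 paralogs in both genotypes by mean level per length.

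The members together took 0.0203%, 0.0176% and 0.0189% of all counted reads in the BALB/c libraries, against 0.0262%, 0.0386% and 0.0301% in the SKG libraries. The groups did not overlap (means 0.0189% ± 0.00133 and 0.0316% ± 0.00635, SD, n = 3, two-sided exact permutation p = 0.1). Without Klf2 the shares overlapped, at 0.0198%, 0.0176% and 0.0173% in BALB/c and 0.0196%, 0.0303% and 0.0197% in SKG (exact permutation p = 0.3). Klf2 made up 2.18% of the members' reads in BALB/c library 1 (exact Clopper-Pearson 95% interval 1.87% to 2.51%), 0.212% in library 2 (0.116% to 0.355%) and 8.73% in library 3 (8.13% to 9.37%). In SKG it made up 25.2% in library 1 (24.4% to 26.1%), 21.4% in library 2 (20.8% to 22.1%) and 34.4% in library 3 (33.6% to 35.3%). Reads carry no molecular identifiers, so these intervals cover counting error only.

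Of the 10 other Klf genes in the table, 5 passed the filter on low counts. All 5 had log2 fold changes above 0, from 0.36 (Klf9) to 3.53 (Klf12), where 49% of all genes were above 0. These 5 genes are too few to set against that share. Klf8 and Klf12 passed the filter through BALB/c library 3 and SKG libraries 1 and 3, and Klf11 through BALB/c library 1 and SKG libraries 1 and 2. They thus passed mostly through SKG, where their estimates were higher. Klf12 had 1, 1 and 64 reads in BALB/c against 18, 6 and 595 in SKG. Without SKG library 3 its estimate was -0.69. Klf9 had 2 reads in SKG library 3. None of these 5 had an unadjusted p under 0.05 or libraries that did not overlap. Klf11 had 451, 1 and 2 reads in BALB/c against 1342, 1316 and 2 in SKG, and Klf8 had 6, 7 and 220 in BALB/c against 819, 2 and 479 in SKG. Both were present in some libraries of each genotype and nearly absent in others. Klf16 was the most even of the 5, with 387, 59 and 318 reads in BALB/c against 720, 345 and 713 in SKG (log2 fold change 1.37 ± 0.90 SE, adjusted p = 0.987, edgeR). Klf1 and Klf5 had 0 reads in every library.

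The Sp genes, whose products have the same kind of zinc fingers and bind GC boxes, varied less within genotypes for Sp1, Sp2 and Sp3 than most Klf genes did. Of the 9, 4 passed the filter, Sp1 to Sp4. For 4 of 4 every SKG library was above every BALB/c library, where 6.77% of all genes showed that. These 4 genes are too few to set against that share. Sp3 stood at 189, 198 and 201 CPM in BALB/c and at 281, 253 and 308 CPM in SKG. The groups were narrow and apart, with a fold change of 1.43 (log2 0.52, standard error 0.14, unadjusted p = 0.00894, adjusted p = 0.722, edgeR). Sp2 had a log2 fold change of 0.51 ± 0.21 (SE, unadjusted p = 0.0489, adjusted p = 0.912, edgeR) and Sp1 one of 0.52 (standard error 0.25, adjusted p = 0.952). Sp4 had 27, 510 and 838 reads in BALB/c against 1040, 1629 and 763 in SKG, with BALB/c library 1 far below all others and a log2 fold change of 1.43 (standard error 1.09). EdgeR called 0 of the 4, against 0% of all genes. An unadjusted p under 0.05 was found for 2, against 5.45% of all genes, and 4 genes are too few for that share as well. DESeq2 gave adjusted p below 0.1 for Sp3 (0.0445 with shrunken fold changes and 0.0351 without shrinkage) and Sp2 (0.0454 and 0.0358), with log2 fold changes of 0.53 to 0.54, which fall short of a 1.5-fold change, so it called neither.

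**Figure D4:**
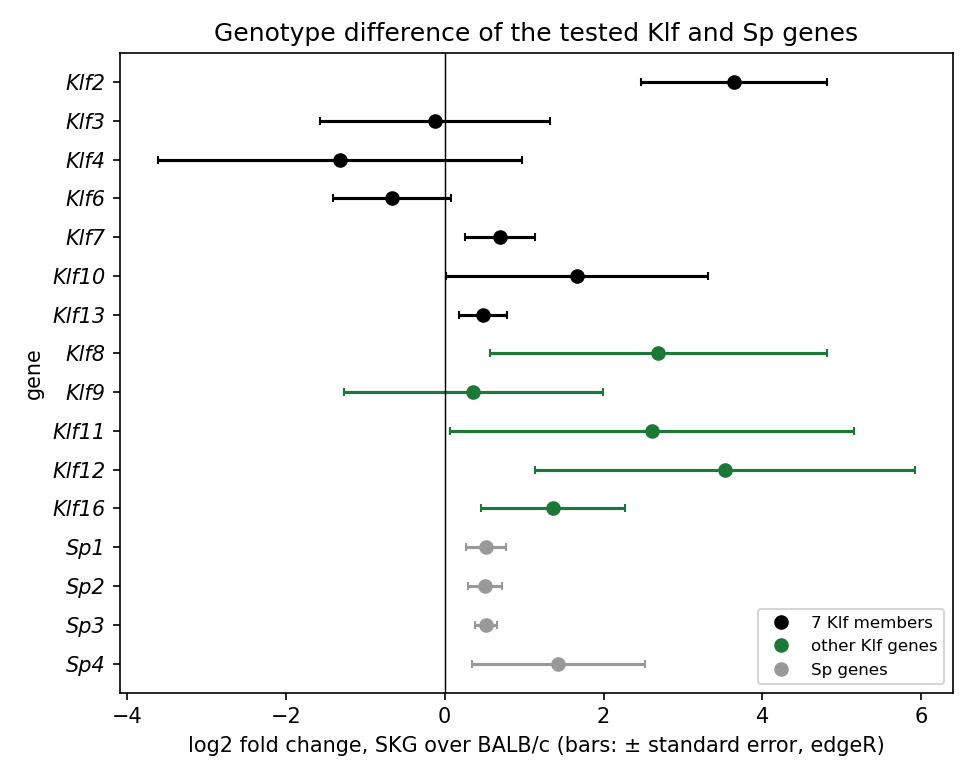
Log2 fold change (SKG over BALB/c, edgeR) with its standard error for the 7 members, the other Klf genes and the Sp genes that passed the filter on low counts. Sp1, Sp2 and Sp3 lie between 0.51 and 0.52 with standard errors of at most 0.25, whereas the Klf genes spread from -1.32 to 3.64.

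Genes that Klf2 is known to activate were examined next. Of 5 trafficking genes, all tested, 3 had log2 fold changes above 0 and 2 below, with 0 at an unadjusted p under 0.05 and 0 without overlap, where 13.9% of all genes did not overlap, so 5 genes are too few to set against that share. S1pr1, the sphingosine-1-phosphate receptor needed to leave the thymus, had 0, 347 and 137 reads in BALB/c against 542, 291 and 713 in SKG. Its groups overlapped, since BALB/c library 2 was above SKG library 2 (9.36 against 7.49 CPM), with a log2 fold change of 1.71 ± 1.82 (SE, adjusted p = 0.991, edgeR). The estimate for the integrin subunit gene Itgb7 pointed away from that for Klf2 (-1.31, standard error 1.23), with overlapping groups. The chemokine receptor gene Ccr7 had 0.57 (standard error 0.47) and S1pr4 1.12 (standard error 0.85). Of 4 genes known to rise when Klf2 is lost, 2 were tested, Zbtb16 (-0.34, standard error 0.30), the PLZF gene of the iNKT lineage, and Il4 (-0.24, standard error 0.99), both with overlapping groups.

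Among 9 genes known to act upstream of Klf2, 8 were tested, 4 with log2 fold changes above 0 and 4 below, and 0 had an unadjusted p under 0.05. The MEK5 and ERK5 cascade did not point in a single direction. Map3k3, which encodes the MEKK3 kinase at its head, was at 3.59, 37.6 and 19.3 CPM in BALB/c and at 64.2, 49.5 and 122 CPM in SKG. Every SKG library was higher, where 6.77% of all genes showed that (log2 fold change 1.96 ± 0.83 SE, adjusted p = 0.931, edgeR). Map2k5, the MEK5 gene, was at 84.2, 69.1 and 83.5 CPM in BALB/c and at 46.5, 52.6 and 62.9 CPM in SKG. Every BALB/c library was higher, where 7.12% of all genes showed that (log2 fold change -0.55 ± 0.25 SE, adjusted p = 0.952, edgeR). Of the 8 tested, 1 gene was thus apart in each direction, and 8 genes are too few to set against these shares. Mapk7, the ERK5 gene, overlapped between the genotypes (-0.40, standard error 0.44). Foxo1 was at 1.53, 10.6 and 20.6 CPM in BALB/c and at 26.7, 8.00 and 20.0 CPM in SKG, with overlapping groups (0.74, standard error 1.02). Foxo3 overlapped too (1.47, standard error 2.02).

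Of 14 genes whose proteins modify Krüppel-like factors or partner them, 2 did not overlap between the genotypes, Ctbp1 and Crebbp, a share near the 13.9% of all genes. The 4 ubiquitin ligase genes known to target them all overlapped, at log2 fold changes of 0.36 for Itch, 0.28 for Smurf1, -0.28 for Fbxw7 and -1.45 for Wwp1. Of 10 corepressor and coactivator genes, 6 had log2 fold changes above 0 and 4 below. Ctbp1, a corepressor recruited by Klf3, was at 181, 259 and 278 CPM in BALB/c and at 412, 449 and 432 CPM in SKG. The SKG libraries were close together and all above the BALB/c libraries, with a log2 fold change of 0.85 ± 0.19 (SE, unadjusted p = 0.00348, adjusted p = 0.619, edgeR). EdgeR did not call it, and DESeq2 did with shrunken fold changes (adjusted p = 0.0530) and without shrinkage (adjusted p = 0.0418). Crebbp, which encodes the CBP acetyltransferase, was higher in every BALB/c library (-0.66, standard error 0.31, adjusted p = 0.952, edgeR). Kat2b (0.35) and Hdac2 (0.16) overlapped.

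Of 4 cell cycle inhibitor genes linked to Klf2 and Klf4, 3 were tested, and 0 had an unadjusted p under 0.05. Cdkn1c, the p57 gene, was at low levels of 0.727, 2.83 and 1.44 CPM in BALB/c and of 5.04, 4.50 and 6.61 CPM in SKG. Its groups did not overlap (log2 fold change 1.69 ± 0.95 SE, adjusted p = 0.971, edgeR). Of all genes tested, 6.77% were likewise higher in every SKG library, and 3 genes are too few to set against that share. Cdkn2d (0.27, standard error 0.35) and Cdkn1b (-0.25, standard error 1.09) overlapped.

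Genes were ranked by how alike they were to Klf2 over the 6 libraries. Of 12311 genes ranked, Klf7 was at 2306, Klf13 at 2783 and Klf10 at 5305. Klf6 was at 6799, Klf4 at 11036 and Klf3 at 11620. Among so many genes, the absence of all 6 paralogs from the 5 nearest says little about them. Likeness was the root mean square difference of log2 CPM after each gene was centred on its own mean, and it is a description over 6 libraries in which all points share depth and complexity. The nearest of the other genes was Tbc1d4, which encodes a regulator of glucose transporter traffic, at 0.459, with 83, 2 and 254 reads in BALB/c against 1067, 948 and 2521 in SKG. It rose and fell over the libraries in nearly the order of Klf2, with the lowest value in BALB/c library 2 and the highest in SKG library 3. Gm37760 (0.620), Tcrg-C4 (0.627), a constant segment of the γ chain locus of the T cell receptor, Sft2d3 (0.674) and Map4k3 (0.689) followed.

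Markers of other cell types were summed in each library. Double-positive thymocyte markers were at 39.3 to 394 CPM in BALB/c, with the highest value in library 1, and at 72.3 to 153 CPM in SKG. Erythroid markers were also highest in BALB/c library 1, at 69.7 CPM against at most 1.57 CPM in the other 5 libraries, with Alas2 at 0 throughout. This is the library with the highest Klf6, and without it the log2 fold change was 0.28 for Klf6 and 3.41 for Klf2. Endothelial cells, which express Klf2 and Klf4 strongly, had their 7 markers at 94.0 to 171 CPM in BALB/c and 143 to 160 CPM in SKG, almost wholly from Pecam1, and Cdh5 was at 0 in every library. Myeloid markers were at 3.43 to 69.6 CPM in BALB/c and at 6.73 to 135 CPM in SKG, highest in SKG library 3, with Lyz2 and Cd68 as the main part, and B cell markers, mostly Ighm, were at 6.87 to 94.9 CPM and 4.47 to 45.0 CPM. Mature iNKT markers were at 169 to 297 CPM and 202 to 309 CPM, mostly from Il2rb, with Tbx21 at 0. Of the 4 that were tested, 3 had log2 fold changes below 0, Klrb1c (-3.14), Nkg7 (-3.01) and Cd44 (-2.16). Nkg7 was lower in every SKG library, at 8.78, 11.5 and 14.9 CPM in BALB/c against 1.27, 0 and 3.10 CPM in SKG. Of all genes tested, 7.12% showed that, and 4 genes are too few to set against that share. Thymic epithelial markers, almost wholly Epcam, were at 28.1 to 40.3 CPM and 10.0 to 86.9 CPM, with Krt5 and Psmb11 at 0. All 7 of these sums overlapped between the genotypes, that of the mature iNKT markers through Il2rb, and the part of the markers in the differences of the members was not tested.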

How the data were processed

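RNA of stage 0 iNKT cells was sequenced in 6 libraries, 3 for each genotype. Per the submitters' processing notes and the methods, the authors aligned reads with HISAT2 2.1.0 to GRCm38 and counted those on exons with featureCounts (Subread 1.4.4), without strand, if their mapping quality was 10 or higher. The deposited counts are whole numbers without normalization. A second deposited table holds the authors' own DESeq2 comparison and was not used. The labels and the methods name different amplification kits, and duplicates of a molecule cannot be recognised in the counts.

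Genotypes were compared with edgeR 4.0.16 under R 4.3.3 (filterByExpr by genotype, TMM, quasi-likelihood test, all 6 libraries, no covariate). Standard errors were derived as |log2 fold change| over the square root of F. Calls required an FDR below 0.1 and a change of 1.5-fold or more. Two-sided exact permutation tests served for single measures, and log2 CPM outside the fits used a prior count of 2. RPKM was computed here from the exon union of GENCODE M21. Alternatives were DESeq2 1.42.0 with and without shrinkage, limma-voom (limma 3.58.1), other normalization, other filters, replicate blocks and each library left out. The fits were also run on simulated data with known changes, and the outcome is not reported here. Members and gene lists were chosen with earlier results of these data known. Genes named outside the members are, per list, up to 4 with the lowest p, S1pr1, Ccr7, Itgb7, Foxo1, Zbtb16 and Zap70, and the 5 nearest to Klf2. Some genes of the lists are not reported here by name. Klf1, Klf5, Klf9, the marker genes and Gm26649 were named after their values were seen. P-values measure the spread between pools labelled as independent samples.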

Additional observations from a re-analysis of the deposited data

How the results depend on the processing

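EdgeR's quasi-likelihood test called 0 genes over all (671 at an unadjusted p under 0.05). It also called 0 with DESeq2's size factors, with library size alone, with a minimum count of 50 and with each library left out, and limma-voom called 0. Without a filter it called 2, neither of them a member, DESeq2 called 231 with shrinkage and 370 without, and in both the count of members called was 1 (Klf2). The cause was not tested. Replicate numbers did not pair the libraries (correlations of deviations from -0.145 to 0.00289). With the title number as a replicate block the log2 fold change was 4.56 for Klf2, -1.51 for Klf3, 2.40 for Klf4, -0.49 for Klf6, 0.74 for Klf7, 0.60 for Klf10 and 0.47 for Klf13, with 0 genes called. The library number was also used as the block. Of these numbers, 1 and 4 occur in 1 genotype only. The estimates with this block therefore rest on BALB/c libraries 1 and 2 and SKG libraries 2 and 3. With the library number as the block it was 6.12 for Klf2, and that 0 genes were called there says little. That block reversed Il4 (0.16), Foxo3 (-1.54) and Wwp1 (1.81), and limma-voom reversed Klf4 (0.18) and Foxo3 (-0.95). With a library left out, signs turned within the ranges -1.52 to 0.48 (Klf3), -2.08 to 3.14 (Klf4), -1.05 to 0.28 (Klf6), -0.69 to 7.61 (Klf12), -1.22 to 0.17 (Il4), -0.14 to 2.07 (Foxo3), -0.082 to 0.29 (Hdac2) and -1.82 to 0.21 (Cdkn1b). Of 658 values of named genes under the alternatives, 18 reversed. The differences between Klf2 and each paralog kept their sign with log2(CPM + 1), library size alone and each library left out, and so did the members' share of reads with mitochondrial genes left out of the total. With 3 libraries a genotype, Klf4 had under 30 reads in 5 of the 6, Klf10 in 2 and Klf3 in 1. The standard errors of their log2 fold changes were 2.30, 1.65 and 1.44. Differences of that order in these 3 genes could not be resolved.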
